A study of Rattus norvegicus with 16 samples.

Results

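The Cyp2a and Cyp2b genes encode cytochrome P450 enzymes of the liver that hydroxylate drugs, pesticides, other foreign compounds and steroid hormones. The 6 genes described here are Cyp2b2, Cyp2b3, Cyp2b15, Cyp2a1, Cyp2a2 and Cyp2a3. They were taken as every non-control probe whose RefSeq identifier belongs to one of these symbols, which gave 8 probes of 30367 on the array and 6 genes of 26913. A filter on dim signals kept 6 of the 8 probes and 4 of the 6 genes, out of 13262 probes and 12072 genes kept in all. The probes of Cyp2b15 and Cyp2a2 did not pass it.

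The livers came from male Sprague-Dawley pups aged 21 days, and their RNA was hybridised to 16 dual-colour Agilent arrays, 4 per group, with the RNA of 2 pups pooled on each. Pups of group MM were born to dams given a contaminant mixture and were nursed by other dams given the same mixture. Pups of group M were nursed by their own dams, which had the mixture too. Pups of group CC were born to corn oil dams and were nursed by other corn oil dams, and pups of group C stayed with their own corn oil dams. The mixture held organochlorine pesticides, polychlorinated biphenyls (PCBs) and methylmercury, given at 1 mg/kg/day from gestation day 0 to postnatal day 20. All 16 arrays carried the pups' RNA in Cy5 and, in Cy3, a universal reference RNA made from 14 rat cell lines. Dyes were never swapped. The labels do not name the dams or litters behind a pool, so p-values measure the spread between these pools.

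A pair of features of the hybridisations bear on every value. All arrays of M and MM lay on 1 slide and all arrays of C and CC on the other, so the mixture and the slide cannot be told apart. The reference channel also differed between the slides: Cy3 alone called 7989 of 12072 genes in M over C, which is 66.2%. Array CC 1 also stood apart. The 8 hepatocyte markers, among them Alb and Apoa1, were well above background on all 16 arrays, but on CC 1 their Cy3 signal lay 1.30 log2 units above the mean of all arrays, while on the other 15 arrays it lay within -0.29 and 0.10. This shift was not confined to hepatocyte genes. The Cy3 signal of the 3 erythroid markers with a probe lay at 1.09 on CC 1 and within -0.26 and 0.19 on the other arrays. Skeletal muscle markers such as Ckm and Acta1 were well above background for 7 of 7 genes on CC 1 and CC 2, with summed Cy5 signals of 8926 and 7121, and for at most 1 of 7 on every other array, where the sum was 483 to 528. Exocrine pancreas markers summed to 560 to 3489 in MM, 594 to 1821 in M, 624 to 12436 in CC and 566 to 668 in C. In bulk RNA, fewer cells of a type and less RNA per cell cannot be told apart. Of 3 adipose markers with a probe, 3 were well above background on CC 1 and C 10 and 1 on every other array. For the ratio, members' differences in MM over CC and the counts of the larger lists are also given without CC 1, or without CC 1 and CC 2. Without C 10 the M over C difference was 2.64 log2 units for Cyp2b2 and 1.79 for Cyp2a3.

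Cyp2b2 is one of the phenobarbital-inducible P450 enzymes of rat liver, and its transcription is classically raised when foreign compounds activate the nuclear receptor CAR (encoded by Nr1i3), a process in which the related receptor PXR (Nr1i2) overlaps. PCBs with chlorines in ortho positions and DDT-type pesticides are known CAR activators in rodents. Cyp2b3 is a liver enzyme of the same subfamily that is known not to respond to phenobarbital in rats. Cyp2a1 hydroxylates testosterone at the 7-alpha position and Cyp2a2 at the 15-alpha position, and Cyp2a2 is known as an enzyme of adult male rat liver. Cyp2a3 is known mainly from rat nasal mucosa and lung, where it metabolises coumarin and nicotine-related compounds.

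The 6 genes lie together on chromosome 1, in the order Cyp2b2, Cyp2b3, Cyp2b15, Cyp2a3, Cyp2a1 and Cyp2a2, across 695 kb of the GRCr8 assembly, with Cyp2b2 at chr1:90722243-90736272 and Cyp2a2 at chr1:91391492-91417158. RefSeq promoter windows of the same assembly matched 5 of the 6, all but Cyp2a2. The 250 bases before the transcript start that RefSeq's promoter table uses are shown for the 4 genes that passed the filter, since these are neighbours whose signals differed between the groups in different ways. For Cyp2b2 and Cyp2b3 these windows run past the first base of the gene, at 90722243 and 90780468. All are on the plus strand, 5′ to 3′. Capitals mark matches, on either strand, to TATAAA (the TATA box), AGGTCA (the hexamer bound by many nuclear receptors) or GCGTG (the core bound by the aryl hydrocarbon receptor).
Cyp2b2, chr1:90722031-90722280: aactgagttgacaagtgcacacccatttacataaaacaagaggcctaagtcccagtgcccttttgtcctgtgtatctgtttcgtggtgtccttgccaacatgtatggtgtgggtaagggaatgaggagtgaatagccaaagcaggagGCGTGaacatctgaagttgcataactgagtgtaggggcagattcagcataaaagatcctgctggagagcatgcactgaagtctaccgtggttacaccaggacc
Cyp2b3, chr1:90780242-90780491: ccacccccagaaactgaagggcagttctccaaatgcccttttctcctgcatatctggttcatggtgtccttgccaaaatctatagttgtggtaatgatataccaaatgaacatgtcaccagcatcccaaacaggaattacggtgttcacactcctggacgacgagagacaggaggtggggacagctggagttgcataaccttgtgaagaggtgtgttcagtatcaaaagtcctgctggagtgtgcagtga
Cyp2a1, chr1:91359028-91359277: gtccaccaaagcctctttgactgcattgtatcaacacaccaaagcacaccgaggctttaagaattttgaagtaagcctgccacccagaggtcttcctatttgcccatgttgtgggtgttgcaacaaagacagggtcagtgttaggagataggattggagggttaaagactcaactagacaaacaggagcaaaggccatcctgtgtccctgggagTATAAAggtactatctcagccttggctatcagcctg
Cyp2a3, chr1:91299334-91299583: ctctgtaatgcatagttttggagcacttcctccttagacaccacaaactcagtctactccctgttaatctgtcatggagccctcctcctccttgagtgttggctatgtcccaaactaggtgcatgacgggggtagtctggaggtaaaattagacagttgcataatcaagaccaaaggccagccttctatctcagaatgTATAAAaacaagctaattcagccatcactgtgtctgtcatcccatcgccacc
Counted from the start at the end of each window, TATAAA stood 31 to 36 bases before it in Cyp2a1 and 47 to 52 in Cyp2a3. GCGTG stood 99 to 103 bases before it in Cyp2b2. Among 33469 promoter windows of the same length, 12.9% hold TATAAA, 14.1% AGGTCA and 25.9% GCGTG. In gapped alignments the Cyp2b2 and Cyp2b3 windows had identical bases at 60.0% of the 250, and those of Cyp2a1 and Cyp2a3 at 55.2%. Pairs of a Cyp2b and a Cyp2a window among those shown gave 52.8% to 57.2%, so the Cyp2a1 and Cyp2a3 windows were no more alike than such pairs. The window of Cyp2b1, the closest relative of Cyp2b2, was 90.0% identical to that of Cyp2b2. No probe with a Cyp2b1 identifier was analysed here, and since the transcripts are near copies, signal from Cyp2b1 on the Cyp2b2 probes cannot be told apart from that of Cyp2b2. The CAR-responsive enhancer of the rat Cyp2b genes is known to lie farther upstream than these windows.

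Cyp2b2 was higher in mixture than in control pups, by more than any other member in the loess ratio and in Cy5 alone, whereas in the scanner software's ratio and at a normexp offset of 10 Cyp2a3 differed more. Its brighter probe, A_64_P006590, had raw Cy5 intensities of 7959, 10861, 8223 and 8266 in MM and 10683, 13967, 17926 and 9355 in M, against 1056, 1612, 1866 and 1380 in CC and 1431, 867, 1281 and 847 in C. Every mixture array was above every control array. On the same spots the reference gave raw Cy3 intensities of 90.8 to 110 in MM and 94 to 149 in M, against 46.8 to 64.5 in CC and 50 to 58.5 in C, over a median local Cy3 background of 20 to 26. Cy3 at this probe was well above background on 13 of the 16 arrays, so the denominator of the ratio was a dim signal. By group these were 4 of 4 arrays in MM, 4 in M, 3 in CC and 2 in C, so the failing arrays were all control arrays.

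After background correction and loess normalisation, the log2 ratios of Cy5 over Cy3 at this probe were 7.73, 7.86, 7.94 and 7.81 in MM, and 7.86, 7.98, 8.34 and 7.85 in M. They were 5.03, 5.79, 6.03 and 5.82 in CC, and 5.53, 4.88, 5.65 and 4.92 in C. The mixture and control groups did not overlap in either pair, and CC 1 was the lowest of the CC arrays. Cyp2b2 was 2.76 ± 0.20 (SE, n = 4 arrays per group) log2 units higher in M than in C, 6.76-fold, with an adjusted p of 4.29e-07 (limma, Benjamini-Hochberg over all 12072 genes, as for every adjusted p of a gene below). It was 2.17 ± 0.20 log2 units higher in MM than in CC, 4.49-fold, with a limma adjusted p of 4.81e-06. Without CC 1 the difference between MM and CC was 1.95 log2 units, and without CC 1 and CC 2 it was 1.91. In this ratio Cyp2b2 had the 3rd largest increase of the 12072 genes in M over C and the 6th largest in MM over CC. Ranks in the other measures were not taken.

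**Figure D1:**
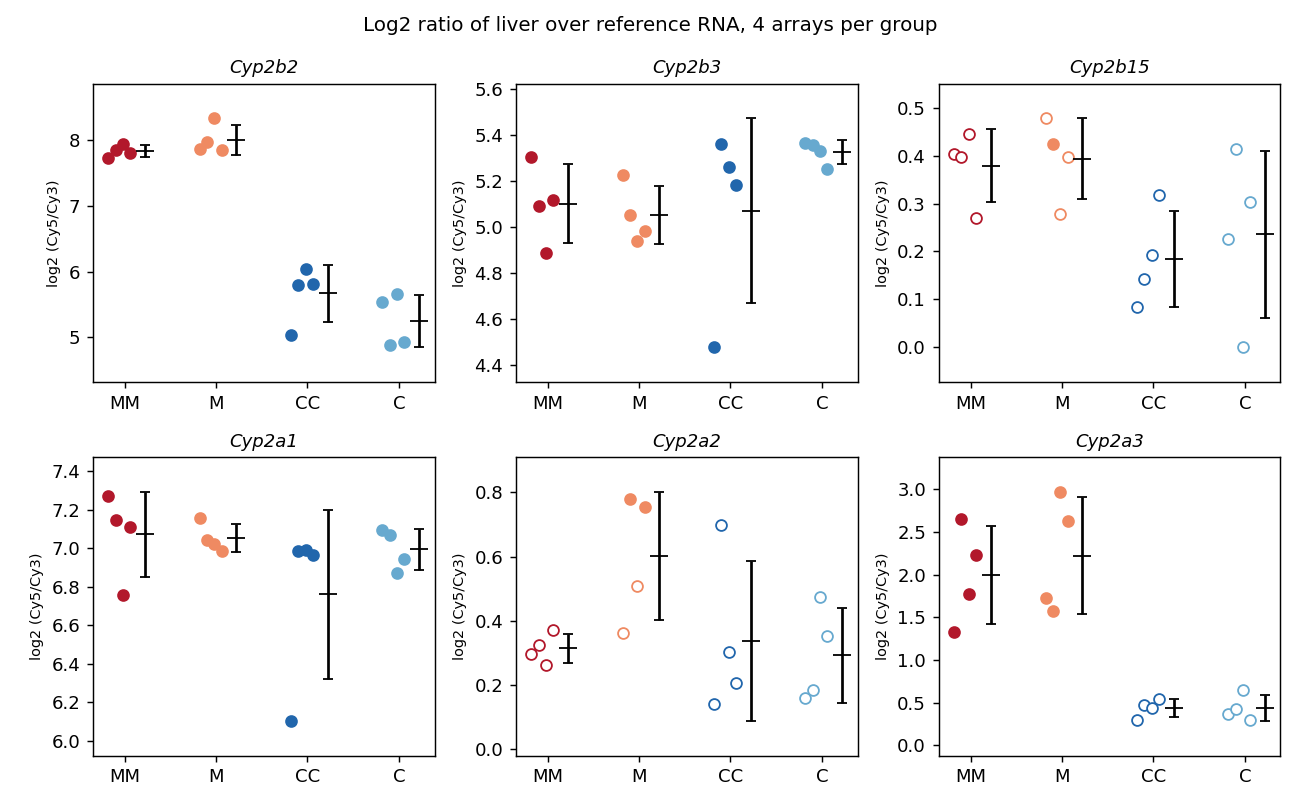
Log2 ratio of liver (Cy5) over reference (Cy3) for the 6 genes, brightest probe of each, with 1 point per array, filled where Cy5 was well above background, and the mean ± SD of 4 arrays as a bar. In Cyp2b2 and Cyp2a3 all 8 MM and M arrays lie above all 8 CC and C arrays, and CC 1 is the low CC point of Cyp2b2, Cyp2b3 and Cyp2a1.

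The dimmer Cyp2b2 probe, A_44_P311324, ran the same way with a smaller difference. Its log2 ratios were 5.87, 6.07, 5.63 and 5.73 in MM and 5.67, 5.96, 6.23 and 5.79 in M, against 3.88, 4.60, 4.79 and 4.50 in CC and 4.54, 3.94, 4.57 and 3.87 in C. Again no mixture array overlapped a control array. The difference was 1.68 ± 0.20 log2 units in M over C and 1.39 ± 0.20 in MM over CC (SE, n = 4 arrays per group), with limma adjusted p-values over all 13262 kept probes of 2.83e-05 and 1.99e-04. Without CC 1 the MM over CC difference of this probe was 1.20, and without CC 1 and CC 2 it was 1.18. Of all kept probes 20.8% were called in M over C and 20.7% in MM over CC.

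The size of the Cyp2b2 difference depended on how the reference channel entered it. In Cy5 alone the brighter probe was 3.55 ± 0.23 log2 units higher in M than in C and 2.85 ± 0.23 higher in MM than in CC, and the limma adjusted p was 2.25e-07 and 2.50e-06. Cy3 alone, the reference RNA, was higher at this probe as well, by 0.84 log2 units in M over C and 0.65 in MM over CC. In the scanner software's own ratios the brighter probe differed by 1.06 (limma adjusted p = 0.00571 over all probes) in M over C and 0.87 (0.0193) in MM over CC. In those ratios the dimmer probe differed by -0.043 (0.866) and 0.17 (0.469), while 33.7% and 33.2% of all kept probes were called. A smaller normexp offset of 10 gave 2.10 and 1.65 log2 units for the brighter probe. Within each of the 2 array rows of the slides, the difference of the brighter probe was 2.71 and 2.80 in M over C and 2.38 and 1.95 in MM over CC.

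**Figure D2:**
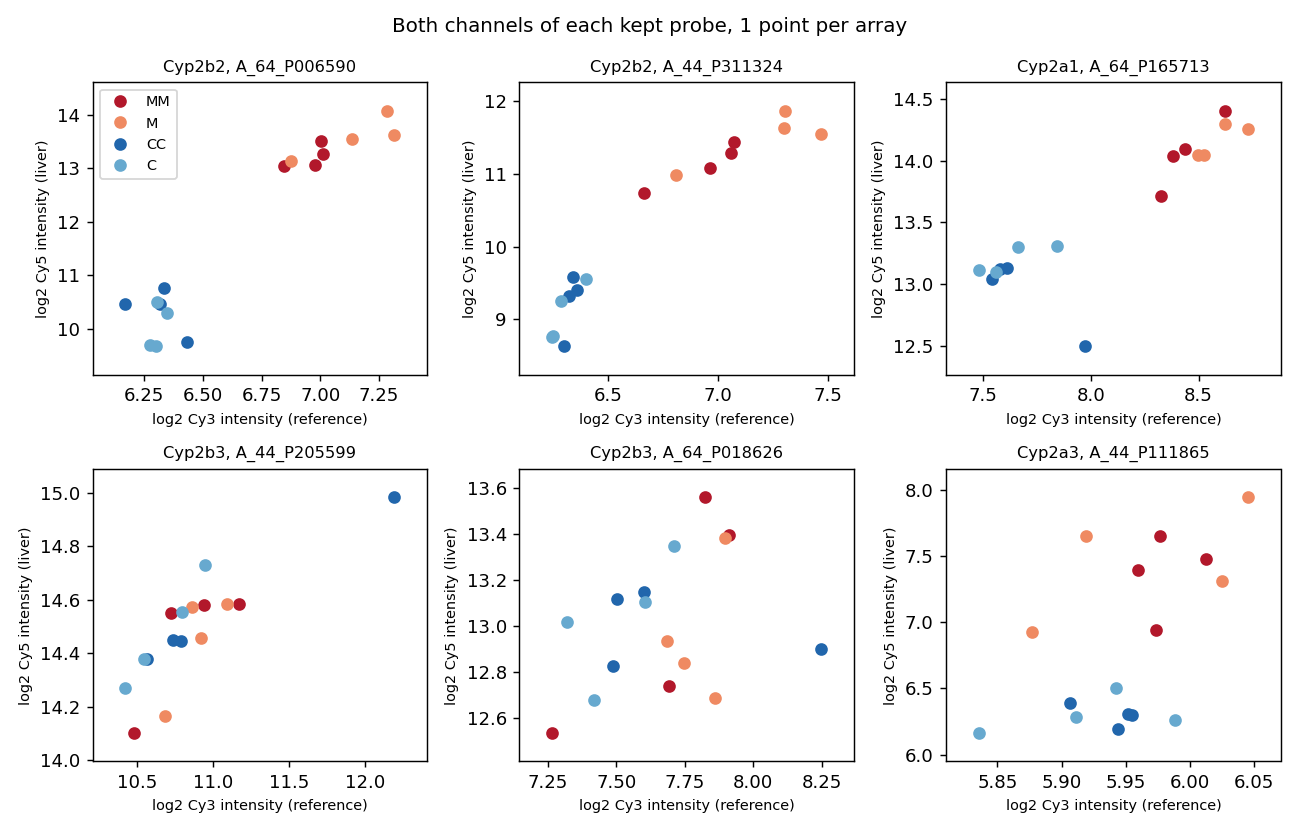
Log2 Cy5 (liver) against log2 Cy3 (reference) intensity at the 6 kept probes, quantile normalised within each channel, 1 point per array. At both Cyp2b2 probes and at Cyp2a1 the MM and M arrays lie higher than the CC and C arrays in both channels, while at Cyp2a3 the Cy3 values of the groups overlap.

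Cyp2b3, the neighbouring Cyp2b gene, was abundant in every group and did not pass the test in either comparison. The log2 ratios of its brighter probe, A_44_P205599, were 5.31, 5.09, 4.89 and 5.12 in MM and 5.23, 5.05, 4.94 and 4.98 in M, against 4.48, 5.36, 5.26 and 5.18 in CC and 5.36, 5.35, 5.33 and 5.25 in C. The lowest value of all was CC 1, where the Cy3 signal was 12.20 log2 units, against 10.57 to 10.79 on the other CC arrays. The M arrays all lay below the C arrays, while MM and CC overlapped. The difference was -0.27 ± 0.15 log2 units in M over C (limma adjusted p = 0.209) and 0.03 ± 0.15 in MM over CC (limma adjusted p = 0.912), and MM over CC gave -0.17 without CC 1. A fit of the M and C arrays alone called the M over C difference, at -0.27 with a limma adjusted p of 0.0373. The 95% intervals were -0.59 to 0.04 and -0.28 to 0.35. Its second probe, A_64_P018626, gave -0.20 ± 0.17 and 0.17 ± 0.17 (-0.017 in MM over CC without CC 1), and in Cy5 alone the brighter probe gave -0.04 and -0.11.

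Cyp2b15, a further Cyp2b gene, was well above background in Cy5 on 1 of the 16 arrays, M 6, and on no array of MM, CC or C. Its raw Cy5 intensities were 89.5 to 99.3 in MM, 87.3 to 99.8 in M, 82 to 92.5 in CC and 75 to 96 in C, which overlapped throughout. Quantile-normalised log2 Cy5 was 6.35 to 6.55 in MM, 6.32 to 6.54 in M, 6.18 to 6.33 in CC and 6.10 to 6.38 in C. In the fit of all 26913 genes without the filter, Cyp2b15 differed by 0.16 ± 0.08 log2 units in M over C and 0.20 ± 0.08 in MM over CC, with limma adjusted p-values of 0.313 and 0.186, and MM over CC gave 0.16 without CC 1. That fit called 8.39% of genes in M over C and 8.05% in MM over CC. In the unfiltered fits of Cy5 alone Cyp2b15 gave 0.18 and 0.21 (limma adjusted p = 0.305 and 0.203). Those of Cy3 alone gave 0.25 in both comparisons (limma adjusted p = 3.37e-04 and 3.39e-04).

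Cyp2a3 was the second member with a higher signal in mixture pups. Its raw Cy5 intensities at A_44_P111865 were 124, 229, 148 and 185 in MM and 146, 144, 261 and 223 in M, against 80.5, 88.5, 88.5 and 93 in CC and 86.5, 89, 90.5 and 82.5 in C. Cy5 was well above background on all 8 mixture arrays and on none of the 8 control arrays. Its log2 ratios were 1.32, 2.65, 1.77 and 2.23 in MM and 1.73, 1.57, 2.97 and 2.62 in M, against 0.30, 0.47, 0.43 and 0.55 in CC and 0.36, 0.42, 0.65 and 0.30 in C. The groups did not overlap, and the mixture arrays spread more widely than the control arrays. Cy3 was not well above background on any array, and its level at this probe differed by 0.05 and 0.04 log2 units between the slides. Whether transcripts of other Cyp2a genes, such as the much brighter Cyp2a1, add to the signal of this probe was not tested.

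The fitted difference of Cyp2a3 was 1.79 ± 0.28 log2 units in M over C (limma adjusted p = 4.06e-04) and 1.56 ± 0.28 in MM over CC (limma adjusted p = 0.00131). The gene had passed the filter only through MM and M, and in the fit of all 26913 genes without the filter the limma adjusted p was 4.66e-04 and 0.00161. Since the control signal was not well above background, its size depends on the scale. In Cy5 after loess and Aquantile, a scale open to dye bias, Cyp2a3 was at least 2.76-fold higher in M than in C and at least 2.30-fold higher in MM than in CC. Quantile-normalised Cy5 gave 2.23-fold and 2.10-fold, which is less, so these bounds hold for the loess and Aquantile scale only. The means behind them were log2 signals of 7.82 in M against a measured 6.33 in C, and 7.64 in MM against 6.35 in CC. Cy5 alone gave 1.15 and 1.07 log2 units, median centring in place of loess 1.18 and 1.04, an offset of 10 gave 2.61 and 2.31, and the scanner software's ratio 3.95 and 4.17. In array row 1 alone the M over C difference was 1.26 and its limma adjusted p 0.0653, in row 2 it was 2.32, and MM over CC gave 1.60 and 1.51. Without CC 1 and CC 2 the difference between MM and CC was 1.51 log2 units.

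Cyp2a1 was higher in the liver channel of mixture pups but not in the ratio. At A_64_P165713 the raw Cy5 intensities were 19496, 18329, 9568 and 16614 in MM and 16248, 19554, 20916 and 17118 in M, against 6962, 10048, 9409 and 8404 in CC and 11395, 9292, 8968 and 8694 in C. In raw Cy5 the M and C arrays did not overlap, while 1 MM array, MM 3, lay below the highest CC array. The raw Cy3 intensities of the reference were 294 to 390 in MM and 337 to 417 in M, against 157 to 248 in CC and 152 to 192 in C. Both channels were thus brighter on the mixture slide at this probe.

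In Cy5 alone Cyp2a1 was 0.96 ± 0.15 log2 units higher in M than in C (limma adjusted p = 0.00200) and 1.12 ± 0.15 higher in MM than in CC (limma adjusted p = 6.27e-04). In Cy3 alone the same probe was higher by 0.96 ± 0.10 and 0.77 ± 0.10 log2 units. The log2 ratios were 7.27, 7.15, 6.76 and 7.11 in MM and 7.15, 7.04, 7.02 and 6.99 in M, against 6.10, 6.99, 6.99 and 6.96 in CC and 7.10, 7.07, 6.87 and 6.94 in C. Apart from CC 1 these values lay within a narrow band. The ratio differed by 0.06 ± 0.16 in M over C (95% interval -0.29 to 0.40, limma adjusted p = 0.840) and by 0.31 ± 0.16 in MM over CC (-0.03 to 0.66, limma adjusted p = 0.195). Without CC 1 the difference between MM and CC was 0.09. Whether the Cy5 difference of Cyp2a1 came with the mixture or with the slide cannot be told apart.

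Cyp2a2 was well above background in Cy5 on 2 of the 16 arrays, M 6 and M 8, although its probe A_42_P786624 was spotted 10 times on each array. Its log2 ratios were 0.30, 0.33, 0.26 and 0.37 in MM and 0.36, 0.78, 0.51 and 0.76 in M, against 0.14, 0.70, 0.30 and 0.21 in CC and 0.16, 0.19, 0.48 and 0.35 in C. All 4 groups overlapped. In the unfiltered fit it differed by 0.31 ± 0.12 log2 units in M over C and -0.02 ± 0.12 in MM over CC (limma adjusted p = 0.127 and 0.952), and MM over CC gave -0.089 without CC 1. With median centring in place of loess the M over C difference was 0.23 and was called (limma adjusted p = 0.0452). In the scanner software's ratio it was 1.36 and was not called (limma adjusted p = 0.149).

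**Figure D3:**
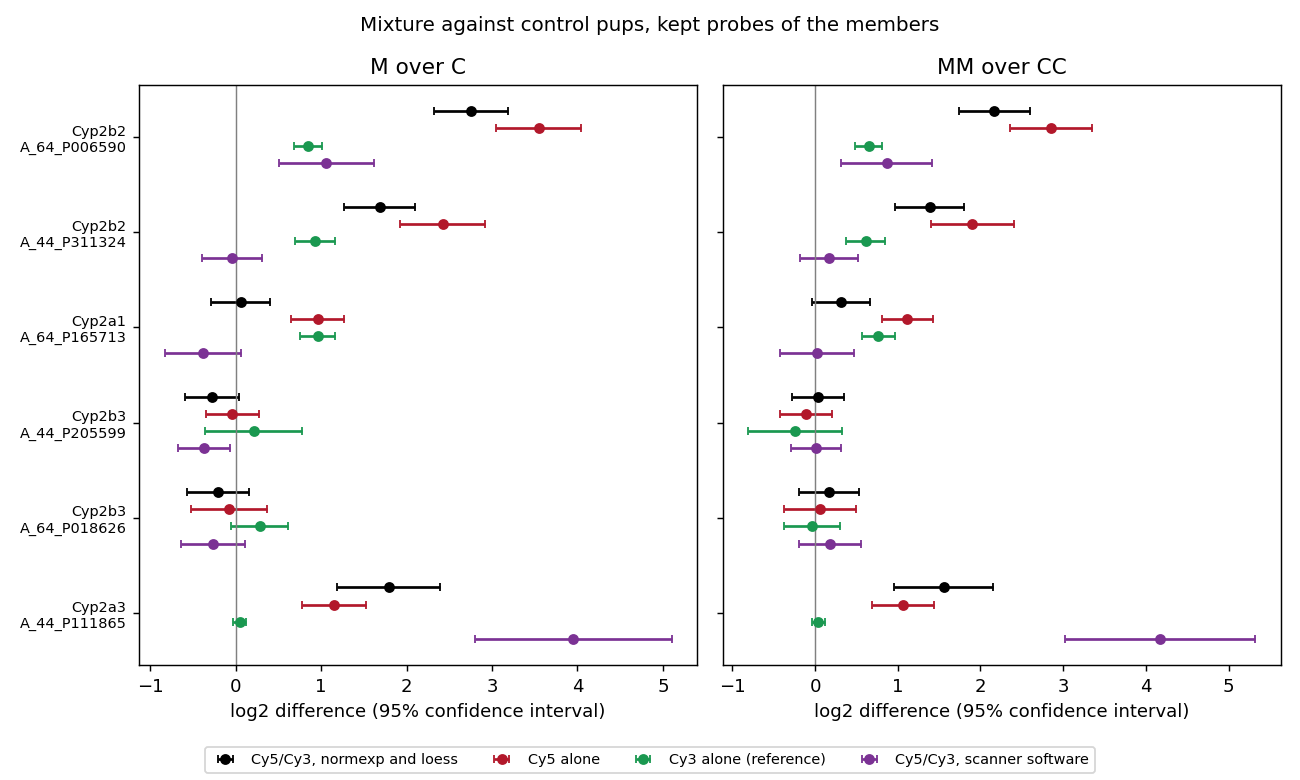
Log2 differences of the 6 kept probes with 95% confidence intervals, M over C at left and MM over CC at right, in the ratio after normexp and loess, in each channel alone, and in the scanner software's ratio. The brighter Cyp2b2 probe and Cyp2a3 lie above 0 in the ratio, in Cy5 alone and in the scanner's ratio, the dimmer Cyp2b2 probe lies near 0 in the scanner's ratio, and Cyp2a1 lies above 0 in each channel alone but not in the ratio.

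Of the 6 members, 2 (Cyp2b2 and Cyp2a3) were called higher in M over C and in MM over CC, 2 were tested and not called, and 2 were not kept by the filter. Over all 12072 genes the called share was 20.4% in M over C, with 8.19% higher and 12.2% lower, and 20% in MM over CC, with 7.83% higher and 12.2% lower. Cyp2a3 was among these genes only through MM and M, the groups where it was high, so its place in the count is not independent of the filter. The fit of all 26913 genes without the filter also called Cyp2a3, where 8.39% and 8.05% of genes were called. The median log2 difference over all genes was -0.05 and -0.06. In Cy5 alone 3 of 4 members, Cyp2a3 again among them, were called higher in both comparisons, where 2.21% of all genes were called in M over C (1.62% higher) and 2.57% in MM over CC (2.15% higher). Groups that did not overlap in the log2 ratio were found for 25.1% of all genes in M over C (9.72% with M higher) and 21.9% in MM over CC (8.68% with MM higher).

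Cross-fostering, which moves a litter to another dam of the same treatment at birth, was compared as CC over C and MM over M. In limma 0 of 4 members were called in either, with 0 at an unadjusted p below 0.05, and 0 of 12072 genes (0%), with 336 and 275 genes at an unadjusted p below 0.05. Cyp2b2 differed by 0.42 ± 0.20 log2 units in CC over C (95% interval -0.01 to 0.85, limma adjusted p = 1.00) and by -0.17 ± 0.20 in MM over M (-0.60 to 0.26, limma adjusted p = 1.00). Without CC 1 the difference between CC and C was 0.63. The other kept members differed by -0.25 (Cyp2b3), -0.23 (Cyp2a1) and 0.00 (Cyp2a3) log2 units in CC over C, and by 0.05, 0.02 and -0.23 in MM over M. Without CC 1 the CC over C values were -0.057 for Cyp2b3, -0.015 for Cyp2a1 and 0.048 for Cyp2a3. With all arrays the 95% intervals of these differences included 0, and that of Cyp2a3 in MM over M ran from -0.83 to 0.37. In the fit without the filter, Cyp2a2 differed by -0.29 ± 0.12 in MM over M (95% interval -0.53 to -0.04, limma adjusted p = 0.9997). Its unadjusted limma p was 0.0243, and its Cy5 was well above background on 2 of the 16 arrays. In CC over C Cyp2a2 differed by 0.04. Cyp2b15 differed by -0.015 in MM over M and -0.05 in CC over C.

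The difference between the mixture contrasts, MM over CC minus M over C, was -0.59 ± 0.29 log2 units for Cyp2b2 (95% interval -1.20 to 0.02) and -0.23 ± 0.40 for Cyp2a3 (-1.08 to 0.62). It was 0.31 ± 0.21 for Cyp2b3 and 0.25 ± 0.23 for Cyp2a1. None of the 4 passed the test (limma adjusted p = 1.00 for each), and 0 of 12072 genes did (0%), with 349 at an unadjusted p below 0.05. Without CC 1 the value was -0.80 for Cyp2b2, -0.28 for Cyp2a3, 0.11 for Cyp2b3 and 0.035 for Cyp2a1.

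**Figure D4:**
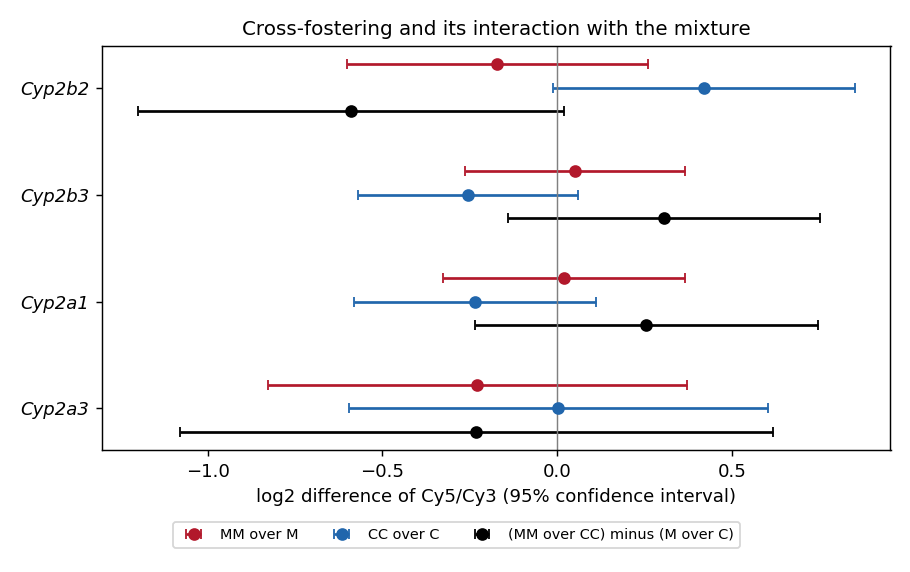
Log2 differences of the ratio with 95% confidence intervals for the 4 kept members, MM over M, CC over C, and the mixture difference in cross-fostered pups minus that in pups kept with their dams. The intervals include 0, and the Cyp2b2 values in CC over C, 0.42, and in the interaction, -0.59, lie farthest from it among the members.

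The genes whose log2 ratios ran most like that of Cyp2b2 over the 16 arrays, by the root mean square difference after centring each gene, were Ceacam4 (0.511), Cyp1b1 (0.541), Kif1c (0.552), Cyp2c7 (0.564) and Ephx1 (0.595). Cyp1b1 is a P450 enzyme inducible through the aryl hydrocarbon receptor, Cyp2c7 a retinoid-metabolising P450 of rat liver, and Ephx1 the microsomal epoxide hydrolase. These 5 genes differed by 1.52 to 3.31 log2 units in M over C, and large differences follow from choosing them by likeness to Cyp2b2 on the same arrays. For Cyp2a3 the nearest genes were Prpf19 (0.330), a splicing factor, and Kif1c (0.370), a kinesin. Cyp2b3 ran closest to Fetub (0.0650), the liver-secreted fetuin-B, and Ang (0.0807), angiogenin. Cyp2a1 ran closest to F2 (0.116), prothrombin, and Cyp2c6v1 (0.118), a liver P450 that is in the list of CAR and PXR targets below. The 16 arrays share 2 slides and array CC 1, so part of each likeness is common to all genes on them.

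Of 7 named other Cyp2 genes of the same cluster, 6 had a probe and 3 were kept, and 0 of 3 passed the test in M over C or in MM over CC, beside 20.4% and 20% of all genes. Cyp2s1, Cyp2f4 and Cyp2t1 differed by 0.15, -0.16 and -0.11 log2 units in M over C. At an unadjusted p below 0.05 only Cyp2s1 stood out, with 0.24 in MM over CC (limma adjusted p = 0.0519), and 0.21 without CC 1.

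Among the receptors that switch on the inducible members, and their partners, 1 gene passed the test. Of 16 named genes 13 were tested, and 0 were higher and 1 lower in M over C, with 0 called in MM over CC, beside 12.2% of all genes called lower in each. In MM over CC 0 were called also without CC 1, and without CC 1 and CC 2. The gene called was Foxa2, a liver transcription factor, with -0.68 ± 0.18 log2 units in M over C (limma adjusted p = 0.0138) and -0.23 in MM over CC. In Cy5 alone Foxa2 was not called, at -0.25 in M over C (limma adjusted p = 0.510) and 0.20 in MM over CC, while its Cy3 signal differed by 0.46 and 0.41. CAR itself (Nr1i3) differed by 0.35 ± 0.29 in M over C and 0.30 ± 0.29 in MM over CC, and PXR (Nr1i2) by -0.12 and -0.06, and without CC 1 the MM over CC values were 0.12 and -0.16. None of these was called. The list's median was -0.06 in M over C and -0.11 in MM over CC.

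Many other genes known to be targets of CAR and PXR were higher on the mixture slide. This list, like the other lists, was chosen with earlier results of these data known, so its counts are not an independent test. Of 22 named genes 18 were tested. In M over C 12 were higher and 0 lower, with a median of 0.82 log2 units, and in MM over CC 10 were higher and 0 lower, with a median of 0.57. Of all genes 8.19% and 7.83% were called higher. In Cy5 alone 13 and 10 of the list were higher, beside 1.62% and 2.15% of all genes. Without CC 1, and without CC 1 and CC 2, again 10 were called higher in MM over CC, and without C 10 11 were in M over C. The genes of smallest p in M over C were Ephx1 (1.65, limma adjusted p = 9.33e-06), Cyp2c7 (2.34, 2.44e-05), Abcc3 (0.76, 2.69e-04), a basolateral conjugate exporter, and Aldh1a1 (1.69, 3.85e-04), which oxidises retinal. In MM over CC these 4 differed by 1.49, 2.72, 0.60 and 1.69. Cyp3a23-3a1, the classical PXR target of rat liver, was higher by 0.89 and 0.80 (0.64 in MM over CC without CC 1). The other Cyp3a genes tested were not called, with -0.47 and -0.89 for Cyp3a18 and 0.0072 and 0.37 for Cyp3a2. Cyp2c6v1 repeated the pattern of Cyp2a1, with 1.87 log2 units in Cy5 and 1.84 in Cy3 in M over C and 0.03 in the ratio.

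The list of electron supply and heme turnover holds genes that serve P450 enzymes and also Hmox1, the heme oxygenase, which breaks heme down and is among those called higher in both comparisons. Of 12 tested, 8 were higher and 0 lower in M over C, with a median of 0.38 log2 units, and 4 were higher and 0 lower in MM over CC, with a median of 0.27, beside 8.19% and 7.83% of all genes. In Cy5 alone 2 and 1 were higher, beside 1.62% and 2.15% of all genes. Without CC 1, and without CC 1 and CC 2, again 4 were called higher in MM over CC, and without C 10 7 were in M over C. Cyb5a, the cytochrome b5 that passes electrons to P450 enzymes, was higher by 0.68 and 0.58 in the ratio and by 0.95 and 0.86 in Cy5 alone. Cyb5r3, its reductase, was higher by 0.66 and 0.57, Por, the main P450 reductase, by 0.85 and 0.97, and Hmox1 by 0.50 and 0.37. In Cy5 alone Por gave 0.35 and 0.58 and Hmox1 -0.10 and -0.16, while their Cy3 signals differed by -0.47 and -0.61 log2 units in M over C. For Cyb5a alone among these 4 did Cy5 by itself pass the test in both comparisons.

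Among 7 tested steroid hydroxylases and reductases of rat liver, 1 was higher and 1 lower in M over C, and 1 higher and 0 lower in MM over CC. Counts of 1 in 7 are near the shares of all genes called higher (8.19% and 7.83%) and lower (12.2% in each). In Cy5 alone 1 was higher and 1 lower in both comparisons, beside 1.62% and 2.15% of all genes called higher and 0.588% and 0.422% called lower. The gene that rose was Cyp2c11, the main P450 of adult male rat liver, by 1.09 ± 0.21 and 0.97 ± 0.21 log2 units (limma adjusted p = 0.00180 and 0.00446). The gene that fell was Cyp17a1, the steroid 17-alpha-hydroxylase, with -0.43 ± 0.12 in M over C (limma adjusted p = 0.0150) and -0.30 in MM over CC (limma adjusted p = 0.0799), which was -0.38 and called without CC 1 (limma adjusted p = 0.0293) but not without CC 1 and CC 2 (-0.32, limma adjusted p = 0.123). In Cy5 alone Cyp17a1 differed by -1.01 and -0.74. Cyp2c12 and Srd5a1 differed by 0.65 and 0.26 in M over C without passing the test.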

How the data were processed

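Liver RNA of 16 pools was measured against 1 reference RNA. The scanner software was Agilent Feature Extraction 11.0.1.1, per the file headers. Each deposited scanner file lists, per spot, a median intensity in both channels with its local background, and a log10 ratio of Cy5 over Cy3 that the software computed. The deposited series table holds log2 ratios whose normalization is not stated, with array medians of -0.049 to -0.037. It correlated with the ratios computed here at 0.996 to 0.997 per array.

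Spot intensities were background-corrected by normexp (offset 50) and ratios were normalised within arrays by loess, with control and outlier spots at weight 0. Outlier spots were then left out and spots of a probe averaged. For the channels alone, corrected intensities were quantile normalised. A probe was kept if 3 or more of the 4 arrays of some group had it well above background in Cy5, and the brightest kept probe stood for its gene. Differences were tested with limma 3.58.1 (R 4.3.3) on all 16 arrays with 1 mean per group, two-sided, called at an adjusted p below 0.05. No member had a missing value, and 2 genes tested did. On simulated data for M over C with 12072 genes, 67, 67 and 66 genes were changed by 1.5-fold, 2-fold and 4-fold. The test recovered 73.1% of the 1.5-fold, 95.5% of the 2-fold and 100% of the 4-fold changes. These shares do not bear on whether a difference came with the mixture or with the slide. A gene well above background on no array of the dimmer group has a bound there: on each array, the higher of its own Cy5 signal and the lowest Cy5 signal called well above background, after loess and Aquantile, averaged and set against the mean of the 4 brighter arrays. The rule for named genes was every member, its nearest genes, and up to 4 genes per list by smallest p in M over C, with Nr1i3, Nr1i2, Cyp3a23-3a1, Cyp3a18, Cyp3a2 and Cyp2c6v1 added after their values were seen. The members and lists were chosen with earlier results of these data known. The alternatives tried were other background corrections, normalisations, filters, probe choices, array rows and left-out arrays.

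Across arrays, median Cy5 was 87 to 102 over a background of 67 to 73, and median Cy3 130 to 150 over 20 to 26. Saturation was seen at 0 spots. Precision is limited by the 4 arrays per group.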

Additional observations from a re-analysis of the deposited data

Results flagged for a closer look

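In group CC the log2 ratio of Cyp2a1 was 6.10 on array CC 1 and 6.96 to 6.99 on the other 3 arrays. The gap from CC 1 to its nearest neighbour was 0.972 of the range of the group, above Dixon's 95% critical value for 4 arrays. Among 32 groups of values checked (8 probes in 4 groups) this was the only one past that value, where chance alone would give about 1.6. On CC 1 the Cy5 signal of Cyp2a1 was 12.49 log2 units, against 13.04 to 13.13 on the other CC arrays, and its Cy3 signal was 7.97, against 7.54 to 7.61. The hepatocyte markers as a list lay at -1.43 log2 units from their mean over all arrays on CC 1 in the ratio, with -0.12 in Cy5 and 1.30 in Cy3. The part these signals play in the Cyp2a1 value was not tested.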

How the results depend on the processing

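Cyp2b2 at its brighter probe was called higher in M over C and MM over CC under every alternative run, at 1.06 to 3.55 and 0.87 to 2.85 log2 units. Leaving out 1 array gave 2.64 to 2.89 and 1.95 to 2.29. Cyp2a3 lost its call in M over C in array row 1 alone (1.26, limma adjusted p = 0.0653), so 1 member was called there, beside 6.93% of all genes. It was not tested where Cy5 had to be well above background on all 16 arrays, so 1 member was called in M over C and 1 in MM over CC, beside 22.5% and 22.1% of the 9802 genes so kept. Leaving out 1 array gave Cyp2a3 1.54 to 2.01 and 1.34 to 1.78.

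The scanner software's ratio gave the dimmer Cyp2b2 probe -0.043 in M over C and 0.17 in MM over CC, and neither passed the test. The same input turned Cyp2a1 to -0.38 in M over C, Cyp2a3 to -0.35 in CC over C and 0.22 in the interaction, Cyp2b2 to 0.029 in MM over M, and Cyp2a2 to 0.087 in MM over CC. Cyp2a1 in M over C was -0.050 in the series table, -0.033 without background correction, -0.11 at an offset of 10 and -0.0092 with median centring. It passed the test in Cy5 alone, at 0.96 in M over C and 1.12 in MM over CC. Cy5 alone also turned Cyp2b3 to -0.11 in MM over CC, 0.082 in CC over C and -0.073 in the interaction, Cyp2a3 to -0.0054 in CC over C, Cyp2a1 to -0.10 in MM over M and Cyp2a2 to 0.0060 in MM over CC. Median centring turned Cyp2b3 to -0.20 (second probe -0.055) in MM over CC and -0.025 in MM over M, Cyp2a1 to -0.069 in MM over M, Cyp2b15 to -0.046 in M over C and -0.0088 in MM over CC, and Cyp2a2 to 0.047 in MM over CC. It brought Cyp2a2 in M over C past the threshold (0.23, limma adjusted p = 0.0452). Row 1 alone turned Cyp2a3 to -0.0067 in CC over C, 0.34 in MM over M and 0.34 in the interaction. Row 2 alone turned Cyp2a1 to -0.041 in MM over CC, 0.070 in CC over C, -0.071 in MM over M and -0.14 in the interaction, and in MM over CC Cyp2b3 to -0.22 and Cyp2a2 to 0.061. Fitting only M and C called Cyp2b3 (-0.27, limma adjusted p = 0.0373). Apart from the dimmer Cyp2b2 probe, none of the reversed values passed the test before or after, and the cause was not tested.

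Leaving out 1 array gave -0.17 to 0.13 for Cyp2b3 in MM over CC (second probe -0.017 to 0.26) and -0.018 to 0.12 in MM over M, -0.047 to 0.12 for Cyp2a1 in MM over M, -0.041 to 0.075 for Cyp2a3 in CC over C, -0.45 to 0.020 in MM over M and -0.45 to 0.017 in the interaction, and -0.089 to 0.097 for Cyp2a2 in MM over CC. The other differences of members kept their direction. Leaving out CC 1 and CC 2 together was chosen after seeing the data, and turned Cyp2b3 to -0.12 (second probe -0.085) and Cyp2a2 to 0.059 in MM over CC. With the sample number as a replicate block, MM over CC gave 2.17 for Cyp2b2 (limma adjusted p = 0.00146) and 1.56 for Cyp2a3 (0.00620). In that setting 2 members were called, beside 16.6% of all genes, and no call changed. Same-numbered arrays of MM and CC correlated at 0.339, 0.0575, 0.186 and 0.107 in their deviations from the group means, and CC 4 correlated best with MM 3, so the numbers were not taken as pairs.

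The count of all genes called in M over C was 4024 in the scanner ratio, 267 in Cy5 alone, 837 in row 1 and 705 in row 2, and 1895 to 2151 with 1 array left out. In MM over CC it was 3957, 310, 591 and 1210, 4936 with median centring, 1547 with only those groups, 1465 without CC 1 and CC 2, and 1764 to 2219 with 1 array left out. With all 16 arrays it was 2459 in M over C and 2419 in MM over CC. Row 1 alone called 24 genes in CC over C, 1 in MM over M and 19 in the interaction. Signal over background limits Cyp2b15, Cyp2a2, Cyp2a3 in C and CC, and the Cy3 denominators of Cyp2b2 and Cyp2a3.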
